A study of Homo sapiens with 9 samples.

Results

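The cytosolic ribosomal protein genes, the set described here, encode the protein components of the large (RPL) and small (RPS) ribosomal subunits. Members were the genes whose array annotation gives a symbol starting with RPL or RPS followed by a digit or a P, without the RPS6K kinases. One probe set, the group of short probes that reports one transcript, was kept per gene, the one with the highest mean over the 9 arrays. The rule found 80 of the 14884 named genes, on 94 of 53617 probe sets. It gave 53 functional genes (35 of the large and 18 of the small subunit), 23 pseudogenes and 4 other genes that share the letters: the readthrough gene RPL36A-HNRNPH2, the binding-protein gene RPS19BP1, the divergent transcript RPL34-DT and the antisense gene RPL26L1-AS1. Members such as RPLP0, RPLP1, RPLP2, RPL5, RPS2 and RPL13A had no named probe set and were not analysed here.

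HEK293, a line derived from human embryonic kidney, supplied the RNA that was hybridised to 9 single-colour Affymetrix arrays, with 3 arrays in each of 3 groups. The agonist group was HEK293 cells labelled GPR39 overexpressed and given TC-G-1008, an agonist of the zinc-sensing receptor GPR39, at 1 µM. The GPR39 group was HEK293 cells labelled GPR39 overexpressed and given cumate, the inducer of cumate-switch promoters, at 0.03 mg/mL. The mock group was naive HEK293 cells, described as mock control and titled without cumate. Whether the agonist group also received cumate, how long exposure lasted and whether the receptor line was a single clone are not stated in the labels. No group had cumate or TC-G-1008 without the receptor, so effects of the receptor and of cumate cannot be told apart when the GPR39 group is set against mock. Since cumate is not stated for the agonist group, agonist minus GPR39 may mix TC-G-1008 with a difference in cumate. Agonist minus mock mixes the receptor line, TC-G-1008 and any cumate, which cannot be told apart either. The replicates are called biological without separate cultures being named, and p-values therefore cover only the spread among arrays, which may be technical.

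Each ribosome carries a single copy of most of these proteins, so their mRNAs are usually made in step and are among the most abundant in dividing cells. Most of the mRNAs begin with a C followed by an unbroken run of C and T bases, the 5′ terminal oligopyrimidine or TOP tract, through which the kinase mTOR and the protein LARP1 control their translation. A change in translation by that route need not change the mRNA level, which is what an array measures. Ribosomal protein mRNAs have also been copied back into the genome many times, and most of these copies are pseudogenes that make no ribosomal protein.

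GPR39 itself gave a log2 signal of 2.45 to 2.65 on the agonist arrays, 2.55 to 2.62 on the GPR39 arrays and 2.43 to 2.55 on the mock arrays. These ranges overlap, so the array does not show the labelled overexpression, and the probe set was not tested because it did not exceed the array's 40th percentile (2.63 to 2.70) on at least 3 arrays. Of 7 marker genes listed for HEK293, 5 had a named probe set and all of those were tested, among them KRT18 with a mean of 8.0. Of the marker genes of other cell types that had a named probe set, LUM and DCN of fibroblasts (means 2.02 and 1.65) and ALB of hepatocytes (2.28) were not tested for low signal. The leukocyte genes TYROBP, LAPTM5 and CD14 averaged 3.24, 3.19 and 2.79. The hepatocyte genes TTR and APOA1 averaged 4.40 and 3.74, close to KRT8 and PAX2. In such bulk RNA, fewer cells of a type and less RNA per cell cannot be told apart.

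The first base of the RNA is where the TOP tract sits, so the start-site windows of the functional genes that passed the test below are shown here. RefSeq (GRCh38.p14) windows were available for 48 of the 53 functional genes and for none of the pseudogenes. Each line gives 15 bases before and 15 bases from the listed start, 5′ to 3′ on the gene's strand, with the pyrimidine tract that begins at the start in capitals.
RPS6, chr9:19380222-19380251, minus strand: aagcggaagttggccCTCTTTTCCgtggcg
RPS9, chr19:54200843-54200872, plus strand: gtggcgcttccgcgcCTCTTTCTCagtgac
RPS24, chr10:78033848-78033877, plus strand: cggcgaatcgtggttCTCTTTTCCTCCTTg
RPL29, chr3:51995881-51995910, minus strand: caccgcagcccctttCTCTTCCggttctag
RPL39, chrX:119791616-119791645, minus strand: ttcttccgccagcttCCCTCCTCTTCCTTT
RPL22L1, chr3:170870181-170870210, minus strand: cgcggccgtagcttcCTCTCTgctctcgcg
RPL36AL, chr14:49620612-49620641, minus strand: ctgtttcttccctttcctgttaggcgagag

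The first 6 begin with a tract of at least 5 bases, and the listed start of RPL36AL does not. RPL39 has the longest tract of these, 19 bases, which runs past the end of the printed window. Both listed starts of RPL6 lack a tract, and RPL3L and RPL39L had no window. A C followed by at least 4 C or T bases stood at a listed start of 31 of the 48 functional genes (64.6%), against 5.14% of all 27305 genes with a window. Allowing the tract to begin within 5 bases of the start gave 77.1% of the functional genes and 25.2% of all genes. In the 300 bases around the start, searched on both strands, CGGAAG, the core bound by ETS-family factors, occurred for 64.6% of the functional genes and 22.6% of all genes. AAGATGGC, a YY1 motif, occurred for 10.4% and 3.52%, and CACGTG, the E-box that MYC can bind, for 8.33% and 8.77%. TGANTCA, the AP-1 motif, occurred for 4.17% of the functional genes and 9.37% of all genes. These are letter matches in a window and not measured binding, and a gene with a listed start a few bases off would be missed.

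The mRNAs of the functional ribosomal protein genes differed little in size across the 3 groups, and most were fitted slightly higher in the agonist group. In the agonist group against the GPR39 group, 1 functional gene rose, RPL3L, and none fell among the 52 tested (1.92%, limma, adjusted p below 0.05 over all probe sets). Over all 33376 probe sets tested, 9.06% changed in this comparison, 3.12% upward and 5.95% downward. Since 1 probe set was kept per member, the 11915 named genes tested with 1 probe set each are a closer background, and of these 13.3% changed, 3.64% upward and 9.69% downward. The share of the functional genes lies below both. At an unadjusted p under 0.05, 11 functional genes were higher and 2 were lower, where 9.77% of the named genes were higher and 20.6% lower, and 9.86% and 13.5% of all probe sets. The median change of the functional genes was 0.11 on the log2 scale, against -0.03 over the named genes and 0.0143 over all probe sets. Their fitted change was above 0 for 47 of 52, as it was for 5207 of the 11915 named genes. All 3 agonist arrays lay above all 3 GPR39 arrays for 24 of 52 genes (46.2%), which 13.0% of the named genes and 13.5% of all probe sets did, and below them for 1 gene, which 24.9% and 16.5% did. For 49 of the 52 genes the 95% interval of the change stayed within 1.5-fold in either direction, so changes larger than that lay outside the intervals of those genes. RPL10L, the testis paralog of RPL10, was not tested, with signals of 1.74 to 2.23 on the 9 arrays.

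**Figure D1:**
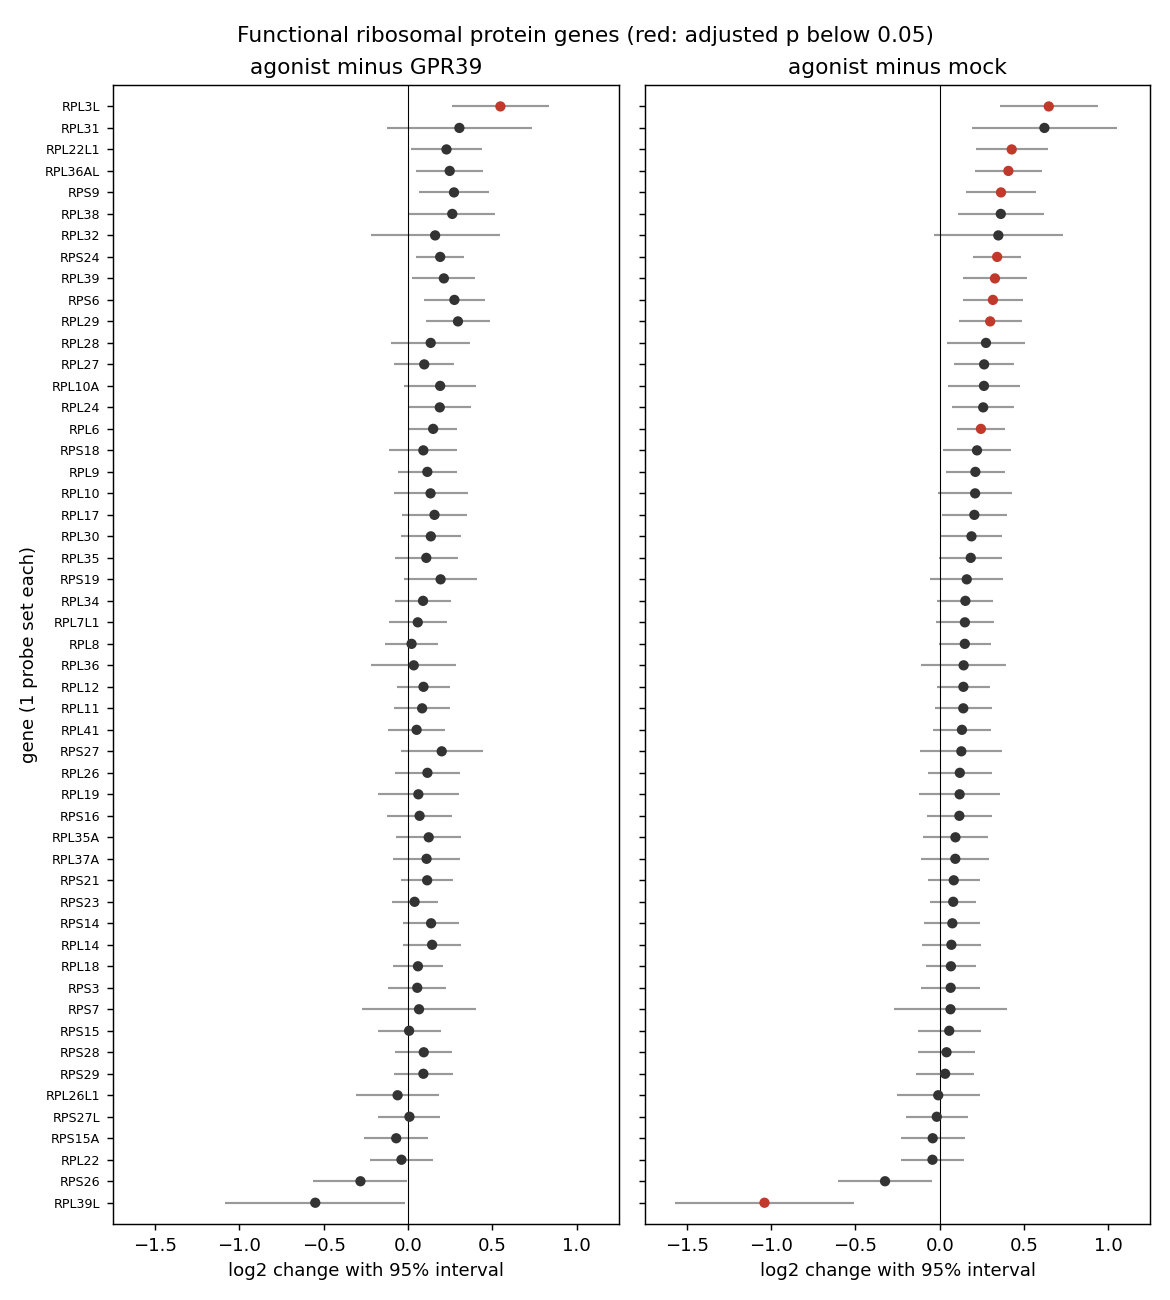
Fitted log2 change of the 52 tested functional ribosomal protein genes in agonist minus GPR39 (left) and agonist minus mock (right) (x axis, log2 units; one gene per row, ordered by the right panel, bars are 95% intervals from limma, red marks an adjusted p below 0.05). Most points lie a little to the right of 0, the medians being 0.11 on the left and 0.15 on the right.

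Between the GPR39 group and the mock group no functional gene passed the test of 52 by limma (0.00%), and 1, RPS24, had an unadjusted p under 0.05, where 8.93% of the named genes were higher and 7.0% lower, and 7.3% and 7.53% of all probe sets. The fit with a mean-variance trend also called none. In this comparison 1.17% of all probe sets changed, 0.749% upward and 0.422% downward, and 1.64% of the named genes, 1.03% upward and 0.604% downward. The median change of the functional genes was 0.05, against 0.02 over the named genes and 0.006 over all probe sets, with 38 of 52 fitted above 0. The GPR39 arrays all lay above the mock arrays for 9 genes, 17.3% against 14.3% of the named genes and 11.4% of all probe sets, and all below for 1 gene, against 10.4% and 9.28%. The 95% interval stayed within 1.5-fold for 50 of the 52.

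The agonist group was also compared with the mock group, which shares its agonist arrays with the first comparison and its mock arrays with the second, so its values are not independent of theirs. Here 9 functional genes rose and 1 fell (19.2% of 52), beside 15.0% of all probe sets called, 6.11% upward and 8.94% downward. Of the named genes 21.8% were called, 7.82% upward and the rest downward. The share of the functional genes called in either direction lies between those of the backgrounds, but the directions differ. The 9 of 52 that rose are a larger share than the upward share of either background. The 1 of 52 that fell is a smaller share than either downward one. With an unadjusted p under 0.05, 19 functional genes were higher and 2 were lower. Of the named genes 14.5% were higher and 22.8% lower by that measure, and of all probe sets 13.1% and 15.8%. The 9 that rose were RPL3L, RPL22L1, RPL36AL, RPS9, RPS24, RPL39, RPS6, RPL29 and RPL6, and the one that fell was RPL39L. The median change was 0.15, against -0.01 over the named genes and 0.0173 over all probe sets, and 46 of 52 genes were fitted above 0, as were 5740 of the 11915 named genes. The agonist arrays all lay above the mock arrays for 28 genes (53.8%), against 16.8% of the named genes and 14.8% of all probe sets, and all below for 1 gene, against 24.0% and 16.2%. The 95% interval stayed within 1.5-fold for 44 genes. The large subunit genes had medians of 0.12, 0.07 and 0.19 in agonist minus GPR39, GPR39 minus mock and agonist minus mock, and the small subunit genes had 0.09, 0.00 and 0.08. Against mock, 6 of 34 large subunit genes rose and 1 fell, and 3 of 18 small subunit genes rose. The difference between the subunits was not tested.

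In the median over the functional genes, 1 agonist array and 1 mock array stood apart from the others. Taken as the median over the 52 functional genes of the deviation of each array from the gene's mean over the 9 arrays, the agonist arrays stood at 0.05, 0.05 and 0.15, the GPR39 arrays at -0.02, -0.02 and -0.01, and the mock arrays at -0.02, -0.02 and -0.15. Agonist replicate 3 was the highest of the 9 arrays for 29 of 52 genes, and mock replicate 3 was the lowest for 32. The same medians over all 33376 probe sets tested lay between -0.0071 and 0.0069. Without agonist replicate 3 and mock replicate 3, a setting chosen after seeing the data, the median was 0.08 in agonist minus mock and 0.08 in agonist minus GPR39. This takes out the highest agonist and the lowest mock array, so a smaller median over mock followed from the choice of arrays. RPL22L1, RPL3L and RPS24 remained called in agonist minus mock in that setting, of the 10 called with all arrays, and RPL3L in agonist minus GPR39. With fewer arrays fitted, the share of all probe sets called in agonist minus mock also fell, from 15.0% to 10.1%. What sets these 2 arrays apart for ribosomal protein genes was not tested.

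**Figure D2:**
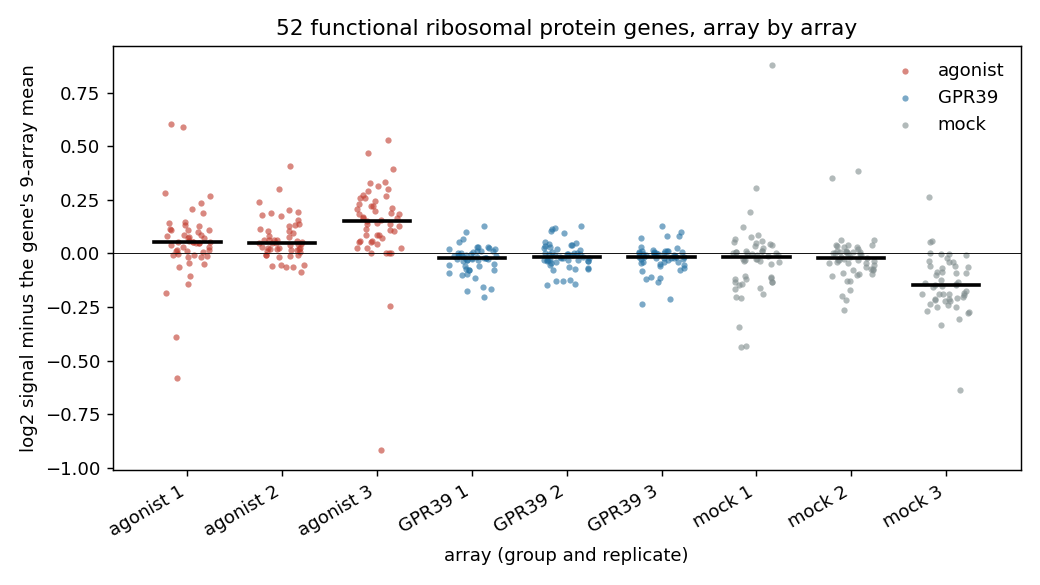
Deviation of each tested functional ribosomal protein gene from its own mean over the 9 arrays (y axis, log2 units), by array, agonist, GPR39 and then mock (points are genes, bars are medians). The medians of agonist replicate 3 and mock replicate 3, 0.15 and -0.15, stand apart from the other 7 arrays, which lie between -0.02 and 0.05.

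The paralogs, second genes that encode a variant of a core protein and are often made in particular tissues, held 4 of the 10 functional genes called in agonist minus mock. Of 11 listed, 8 had a named probe set and 7 were tested, and RPL3L, RPL22L1 and RPL36AL rose while RPL39L fell, beside 21.8% of the named genes and 15.0% of all probe sets called. RPL3L replaces RPL3 in heart and skeletal muscle. It was the dimmest of the tested functional genes, with a mean of 4.10 over the 9 arrays, below the median of 4.6 over all tested values. Its log2 signal was 4.70, 4.51 and 4.28 on the agonist arrays, 4.01, 3.95 and 3.88 on the GPR39 arrays and 3.66, 3.88 and 4.01 on the mock arrays. Every agonist array was higher than every other array, and the GPR39 and mock arrays overlapped. The change was 0.55 ± 0.13 (SE, n = 3 arrays per group) in agonist minus GPR39, a 1.46-fold rise (limma, adjusted p = 0.0331). Over mock it was 0.65 ± 0.13 (limma, adjusted p = 0.0111), and in GPR39 minus mock 0.10 (limma, adjusted p = 0.763). The agonist minus GPR39 call was sensitive to the setting. It was lost without agonist replicate 1 or 2, without any one GPR39 array and without mock replicate 2. It was also lost with the replicate number as a block, and its adjusted p by limma reached 0.111 over all alternatives. Without 1 of the GPR39 arrays the share of all probe sets called also fell, from 9.06% to between 4.59% and 4.8%. The agonist minus mock call was kept under all 19 alternatives.

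RPL39L, the paralog of the exit-tunnel protein RPL39 that is known from testis and tumours, moved the other way. It read 4.58, 5.08 and 4.25 on the agonist arrays, 5.00, 5.29 and 5.26 on the GPR39 arrays and 6.04, 5.55 and 5.43 on the mock arrays. The agonist arrays lay below all mock arrays, the GPR39 arrays lay below all mock arrays too, and agonist and GPR39 arrays overlapped. The change fell by 1.04 ± 0.23 on the log2 scale (SE, n = 3 arrays per group) in agonist minus mock (limma, adjusted p = 0.0197). In agonist minus GPR39 it was -0.55 (limma, adjusted p = 0.200) and in GPR39 minus mock -0.49 (limma, adjusted p = 0.372). Without agonist replicate 1 or without agonist replicate 3 the call in agonist minus mock was lost. It was also lost without agonist replicate 3 and mock replicate 3 together and when only the 2 groups compared were fitted. Its adjusted p by limma reached 0.0618 over all alternatives.

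RPL39 itself rose in agonist minus mock, on both of its probe sets. The brighter probe set read 9.19, 9.33 and 9.42 on the agonist arrays, 9.12, 9.06 and 9.12 on the GPR39 arrays and 9.09, 8.97 and 8.91 on the mock arrays. All agonist arrays were above all others, by 0.33 ± 0.08 over mock (SE, n = 3 arrays per group, limma, adjusted p = 0.0308). The other probe set gave 0.39 (limma, adjusted p = 0.0193). RPL39 and RPL39L therefore had changes of opposite sign against mock on separate probe sets of the same arrays. Their mRNAs are alike in the coding part, so the probes of either may also take up RNA of the other.

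RPL22L1, the paralog of RPL22, read 5.43, 5.39 and 5.29 on the agonist arrays, 5.12, 5.16 and 5.15 on the GPR39 arrays and 4.81, 4.89 and 5.13 on the mock arrays. The agonist arrays were all above the rest, and mock replicate 3 lay within the GPR39 range. Its change in agonist minus mock was 0.43 ± 0.09 (limma, adjusted p = 0.0173), while RPL22 gave -0.04 (limma, adjusted p = 0.771). RPL36AL, a close copy of RPL36A encoded by its own gene, read 5.22, 5.07 and 5.23 on the agonist arrays, 4.86, 4.96 and 4.97 on the GPR39 arrays and 4.83, 4.86 and 4.62 on the mock arrays. It rose by 0.41 ± 0.09 over mock (limma, adjusted p = 0.0158), with no overlap between agonist and either other group. The paralogs RPL7L1, RPL26L1 and RPS27L did not pass, with changes in agonist minus mock of 0.15, -0.01 and -0.02 (limma, adjusted p = 0.229, 0.969 and 0.913).

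**Figure D3:**
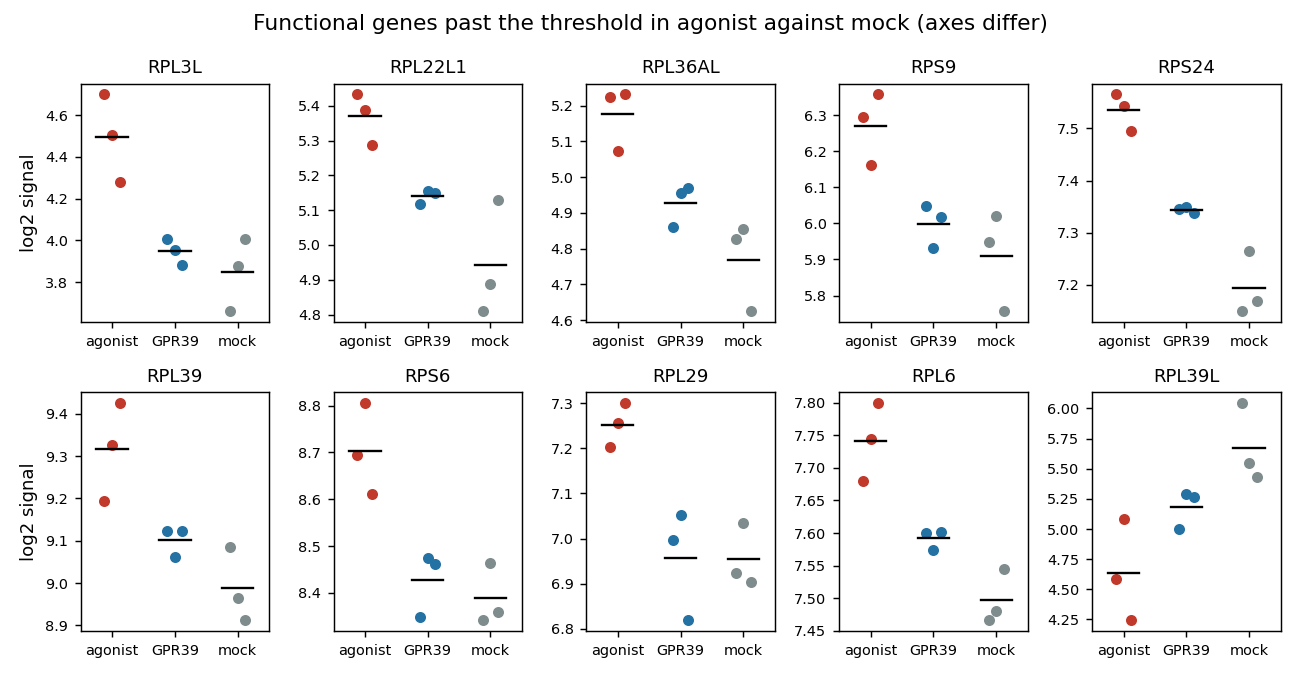
Log2 signal on each of the 9 arrays for the functional genes that passed the test in any comparison (y axis, one panel per gene with its own scale; points are arrays, bars are group means, grouped as agonist, GPR39 and mock). In RPL3L the agonist arrays lie between 4.28 and 4.70, above all others, and in RPL39L the mock arrays, 5.43 to 6.04, are the highest.

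Among the core proteins of the small subunit, RPS24 had the lowest adjusted p of the functional genes in agonist minus mock. It encodes a protein needed to process the precursor of the small subunit's rRNA and is one of the genes mutated in Diamond-Blackfan anaemia. RPS24 read 7.57, 7.54 and 7.50 on the agonist arrays, 7.35, 7.35 and 7.34 on the GPR39 arrays and 7.15, 7.27 and 7.17 on the mock arrays, and none of the 3 groups overlapped. The agonist minus mock change was 0.34 ± 0.06 (SE, n = 3 arrays per group, limma, adjusted p = 0.00796), and it kept its call under all 19 alternatives. In agonist minus GPR39 it was 0.19 (limma, adjusted p = 0.104) and in GPR39 minus mock 0.15 (limma, adjusted p = 0.312). RPS6 encodes the substrate of the S6 kinases downstream of mTOR. It read 8.69, 8.81 and 8.61 on the agonist arrays, 8.35, 8.47 and 8.46 on the GPR39 arrays and 8.34, 8.46 and 8.36 on the mock arrays. All 3 agonist arrays lay above the other 6, which overlapped. Its change was 0.32 ± 0.08 over mock (limma, adjusted p = 0.0297) and 0.28 over the GPR39 group (limma, adjusted p = 0.0679).

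RPS9, a protein of the decoding part of the small subunit, read 6.30, 6.16 and 6.36 on the agonist arrays, 6.05, 5.93 and 6.02 on the GPR39 arrays and 5.95, 6.02 and 5.76 on the mock arrays. Its agonist minus mock change was 0.36 ± 0.09 (limma, adjusted p = 0.0318), with the agonist arrays above all others. RPS26, which sits where mRNA leaves the small subunit, was among the few with a fitted change below 0, at -0.32 in agonist minus mock (limma, adjusted p = 0.118) and -0.28 in agonist minus GPR39 (limma, adjusted p = 0.209). It read 5.57, 5.98 and 5.72 on the agonist arrays, 6.01, 6.01 and 6.09 on the GPR39 arrays and 6.26, 5.97 and 6.01 on the mock arrays, and agonist and mock overlapped. RPS15 and RPS28, bright on all 9 arrays, gave 0.06 and 0.04 in agonist minus mock (limma, adjusted p = 0.691 and 0.760).

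In the large subunit, RPL29 and RPL6 were the other core genes that rose in agonist minus mock. RPL29 read 7.20, 7.26 and 7.30 on the agonist arrays, 7.0, 7.05 and 6.82 on the GPR39 arrays and 6.92, 7.03 and 6.90 on the mock arrays. The agonist arrays did not overlap the others, and the change was 0.30 ± 0.08 over mock (limma, adjusted p = 0.0434) and 0.30 over the GPR39 group (limma, adjusted p = 0.0618). RPL6 read 7.68, 7.74 and 7.80 on the agonist arrays, 7.60, 7.57 and 7.60 on the GPR39 arrays and 7.47, 7.48 and 7.54 on the mock arrays. It rose by 0.24 ± 0.06 over mock (limma, adjusted p = 0.0340), and none of the groups overlapped. Both calls were lost in most of the 19 alternatives, RPL29 in 13 and RPL6 in 12, including the one without agonist replicate 3 and mock replicate 3.

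RPL31 and RPL27, both mutated in some patients with Diamond-Blackfan anaemia, came close to the threshold in agonist minus mock. So did RPL38 and RPL24, not listed for that disease here, with changes of 0.36 and 0.26 (limma, adjusted p = 0.0644 and 0.0694). RPL31 had a larger fitted change than most of the called genes, 0.62 ± 0.19 over mock (limma, adjusted p = 0.0630), but its arrays spread widely. It read 5.26, 4.61 and 5.06 on the agonist arrays, 4.60, 4.67 and 4.75 on the GPR39 arrays and 4.46, 4.57 and 4.03 on the mock arrays, so that agonist lay above mock and overlapped GPR39. RPL27 gave 0.26 ± 0.08 over mock (limma, adjusted p = 0.0581), with all agonist arrays (9.73 to 9.90) above all mock arrays (9.44 to 9.61). RPL10, which joins the large subunit late in its assembly, and RPL12, at the base of its stalk, gave 0.21 and 0.14 over mock (limma, adjusted p = 0.191 and 0.224).

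RPL41, the smallest ribosomal protein, had 5 probe sets, and they did not agree in sign. Their changes ran between -0.18 and 0.44 in agonist minus GPR39, between 0.04 and 0.11 in GPR39 minus mock and between -0.14 and 0.51 in agonist minus mock. The kept probe set, the brightest, gave 0.05, 0.08 and 0.13 in those comparisons (limma, adjusted p = 0.732, 0.660 and 0.284). The dimmest was the one that passed, with 7.22, 7.35 and 7.35 on the agonist arrays, 6.73, 6.95 and 6.91 on the GPR39 arrays and 6.78, 6.94 and 6.67 on the mock arrays. Its changes were 0.44 in agonist minus GPR39 (limma, adjusted p = 0.0261) and 0.51 in agonist minus mock (limma, adjusted p = 0.00954). Of the other functional genes with more than 1 tested probe set, RPL19, RPL39 and RPS18, the probe sets had the same sign in each comparison.

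The calls in agonist minus mock differed in how readily they were lost when 1 array was left out, while each gene's fitted change kept its sign. The adjusted p given for each gene is the highest by limma over all alternatives, not only over single arrays left out. RPL22L1 lost its call without mock replicate 2 or agonist replicate 1 (adjusted p up to 0.0638 by limma), and RPL36AL lost it without agonist replicate 1 or 3 (up to 0.0884). RPS6 lost it without mock replicate 1 or 3 or agonist replicate 1 or 2 (up to 0.0779). RPS9 lost it without replicate 1 or replicate 3 of any group (up to 0.153). RPL39 lost it without any single array other than mock replicate 1 and agonist replicate 1 (up to 0.165), RPL29 without any other than GPR39 replicate 3 (up to 0.208), and RPL6 without any other than mock replicate 3 and agonist replicate 1 (up to 0.0994). Each of these genes also lost it when only the 2 groups compared were fitted. With arrays centred on the median RPS6, RPS9, RPL39, RPL29 and RPL6 lost it. With the replicate number as a block RPL36AL, RPS9, RPL39, RPL29 and RPL6 did. RPS24 and RPL3L kept theirs throughout.

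Median changes were also given by brightness, since dim probe sets hold less signal over background. The 18 dimmest, the 17 middle and the 17 brightest had median changes of 0.08, 0.15 and 0.14 in agonist minus mock, with 4, 3 and 2 genes that rose and 1 that fell, RPL39L, among the dimmest. Upward calls made up 7.82% of the named genes and 6.11% of all probe sets in that comparison. Genes with and without a TOP tract at a listed start also had similar medians. The 31 with a tract had medians of 0.12 in agonist minus GPR39, 0.05 in GPR39 minus mock and 0.14 in agonist minus mock, and the 16 tested without one had 0.09, 0.05 and 0.13. Of the tract genes 6 rose in agonist minus mock, RPL22L1, RPL29, RPL39, RPS24, RPS6 and RPS9, and of those without 2 rose, RPL36AL and RPL6, both to be read beside the same upward shares. These are descriptions and the difference between the classes was not tested.

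Pseudogenes were described apart. Of 23, 17 passed the filter on low signal, and RefSeq classes all 23 as transcribed pseudogenes. Probe sets of a pseudogene can also take up RNA of the parent gene, whose sequence is nearly the same, and the files do not separate them. RPL13P5, a copy of RPL13 on chromosome 12, was the only pseudogene that passed, of 17 tested, in agonist minus GPR39 and in agonist minus mock (5.88% in each). The shares called in either direction were 9.06% and 15.0% of all probe sets and 13.3% and 21.8% of the named genes. RPL13P5 rose in both, and upward calls made up 3.12% and 6.11% of all probe sets and 3.64% and 7.82% of the named genes. With 1 call among 17, no difference from these shares can be read. No pseudogene passed in GPR39 minus mock by limma, where 1 was higher and 1 lower at an unadjusted p under 0.05, beside 8.93% and 7.0% of the named genes. The medians over the 17 were 0.07 in agonist minus GPR39, 0.04 in GPR39 minus mock and 0.13 in agonist minus mock.

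RPL13P5 read 6.22, 6.17 and 6.48 on the agonist arrays, 5.18, 5.01 and 5.48 on the GPR39 arrays and 5.51, 5.37 and 5.51 on the mock arrays. Every agonist array was above every other array, and the GPR39 and mock arrays overlapped. The change was 1.07 ± 0.13 in agonist minus GPR39 (SE, n = 3 arrays per group), a 2.09-fold rise (limma, adjusted p = 0.00318). Over mock it was 0.83 ± 0.13, a 1.77-fold rise (limma, adjusted p = 0.00470), and in GPR39 minus mock -0.24 (limma, adjusted p = 0.442). Both rises kept their call under all 19 alternatives, with a highest adjusted p of 0.0232 and 0.0383. RPL13, the parent, had no named probe set and was not analysed here.

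**Figure D4:**
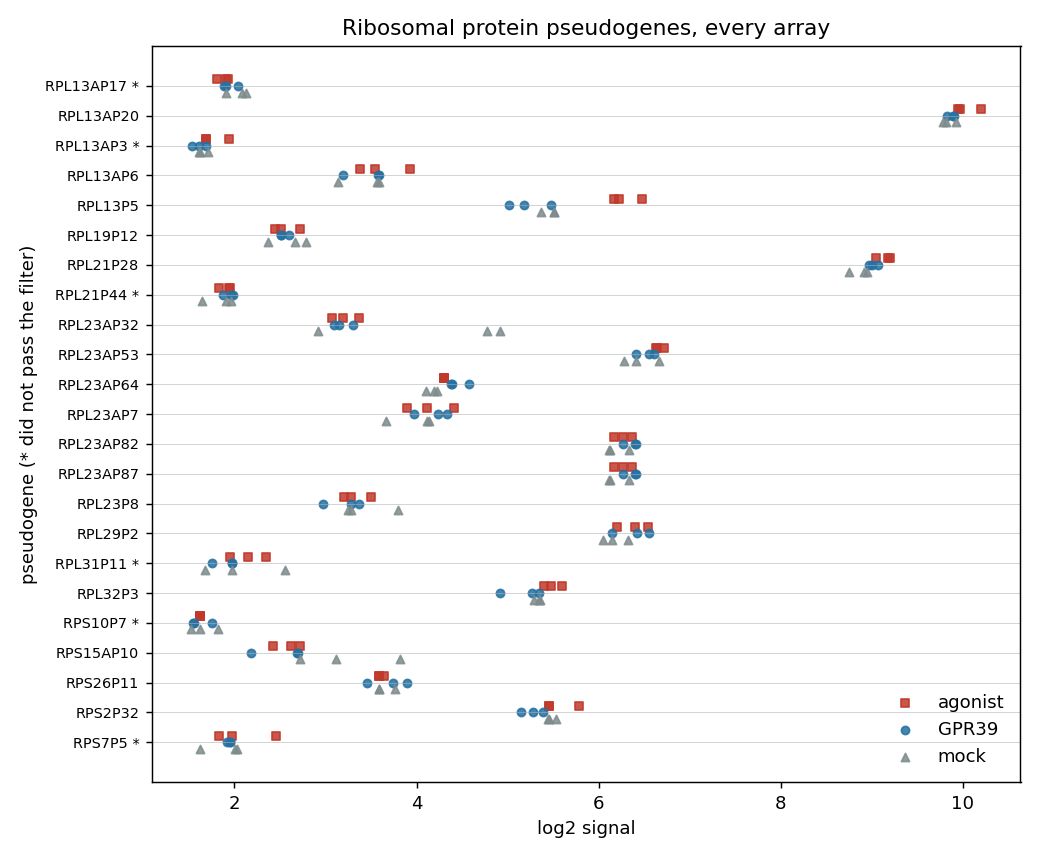
Log2 signal of the 23 ribosomal protein pseudogenes on each of the 9 arrays (x axis; one pseudogene per row, squares for agonist, circles for GPR39 and triangles for mock, a star for those not tested). RPL13P5 is the row in which the agonist arrays, 6.17 to 6.48, lie well to the right of the GPR39 and mock arrays, and in RPL23AP32 a pair of mock arrays lies to the right.

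RPL13AP20, a copy of RPL13A, gave 0.16, 0.04 and 0.20 in agonist minus GPR39, GPR39 minus mock and agonist minus mock, with none past the threshold. RPL21P28 came close in agonist minus mock, at 0.27 ± 0.08 (limma, adjusted p = 0.0587). It read 9.18, 9.05 and 9.21 on the agonist arrays, 8.97, 9.0 and 9.07 on the GPR39 arrays and 8.96, 8.92 and 8.76 on the mock arrays, so agonist and mock did not overlap. RPL23AP53 and RPL29P2 gave 0.21 and 0.20 in agonist minus mock (limma, adjusted p = 0.233 and 0.364). The kept probe sets of RPL23AP82 and RPL23AP87 carry the same value on every array, with a change of 0.08 in agonist minus mock (limma, adjusted p = 0.589). Over all their probe sets the changes in that comparison ran between -0.18 and 0.08 for the 3 of RPL23AP82 and between -0.20 and 0.21 for the 4 of RPL23AP87, and none passed the threshold. In all, 6 of the 23 pseudogenes are copies of RPL23A and 4 are copies of RPL13A, and neither parent had a named probe set.

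A parent gene was named for 7 of the 23 pseudogenes, and 5 of those pairs were tested on both sides. RPL29P2 gave 0.01 in agonist minus GPR39, where RPL29 gave 0.30, and RPL32P3 gave 0.32 where RPL32 gave 0.16. RPS26P11 and RPS26 were both below 0 there, at -0.10 and -0.28, RPL19P12 and RPL19 gave 0.02 and 0.06, and RPS15AP10 and RPS15A gave 0.07 and -0.07. None of these 10 values passed the threshold. A pair of pseudogenes, singled out after their values were seen, had scattered mock arrays. RPL23AP32 read 3.37, 3.19 and 3.07 on the agonist arrays, 3.30, 3.10 and 3.15 on the GPR39 arrays and 2.92, 4.92 and 4.78 on the mock arrays, a change of -0.99 in agonist minus mock (limma, adjusted p = 0.202). RPS15AP10 read 2.72, 2.42 and 2.62 on the agonist arrays, 2.69, 2.69 and 2.18 on the GPR39 arrays and 2.72, 3.12 and 3.82 on the mock arrays (-0.63, limma, adjusted p = 0.164).

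The 4 other genes matched by symbol, RPL36A-HNRNPH2, RPS19BP1, RPL34-DT and RPL26L1-AS1, were all tested and none passed in any comparison by limma, nor had any an unadjusted p under 0.05. FAU, which encodes a small subunit protein fused to a ubiquitin-like one and was the only one of 4 ribosomal proteins with other symbols to be named here, gave 0.21, 0.01 and 0.22 in agonist minus GPR39, GPR39 minus mock and agonist minus mock (limma, adjusted p = 0.223, 0.964 and 0.155). RPL11, which with RPL5 and 5S RNA binds MDM2 when ribosome assembly is disturbed, gave 0.08, 0.06 and 0.14, and was the only one of 5 genes of that list to be named. Of 18 genes listed for Diamond-Blackfan anaemia 14 were tested, with medians of 0.10, 0.00 and 0.12, and RPS24 in agonist minus mock was the only one to pass, where 21.8% of the named genes did. The stalk proteins RPLP0, RPLP1 and RPLP2 had no named probe set.

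Ribosome assembly factors, the proteins that fold and cut rRNA and join it to ribosomal proteins, were higher in the agonist group than in mock in most cases. Of 44 listed, which included MYC and RNA polymerase I genes, 29 were tested. In agonist minus GPR39, 8 of 29 rose (27.6%), beside 3.64% of the named genes and 3.12% of all probe sets, and none fell, with 1 lower at an unadjusted p under 0.05, and the median was 0.16. In GPR39 minus mock, DDX21 rose (3.45% of 29, beside 1.03% and 0.749%), a call lost in 13 of 19 alternatives including each single array left out other than mock replicate 1 (adjusted p up to 0.15 by limma), and the median was 0.18. There 15 of 29 were higher at an unadjusted p under 0.05, beside 8.93% of the named genes and 7.3% of all probe sets. Between the agonist and mock groups, 17 of 29 rose (58.6%), beside 7.82% of the named genes and 6.11% of all probe sets, and none fell, with none lower at an unadjusted p under 0.05, and the median was 0.39. RRP12, known in yeast for the export of both subunits, rose by 0.82 ± 0.09 (limma, adjusted p = 0.000771), the RNA helicase DDX21 by 0.63 ± 0.06 (limma, adjusted p = 0.000475), and BYSL, of the small subunit precursor, by 0.59 ± 0.09 (limma, adjusted p = 0.00392). MYC rose by 0.64 ± 0.08 over mock (limma, adjusted p = 0.00114) and by 0.59 ± 0.08 over the GPR39 group (limma, adjusted p = 0.00356). The count in agonist minus GPR39 was 1 without GPR39 replicate 1, where 4.8% of all probe sets were called in either direction. It was 3 without agonist replicate 3 and mock replicate 3 (6.25% of all probe sets), which left 11 in agonist minus mock (10.1%). The list was compared with the ribosomal protein genes only by these counts and medians, and the difference was not tested.

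**Figure D5:**
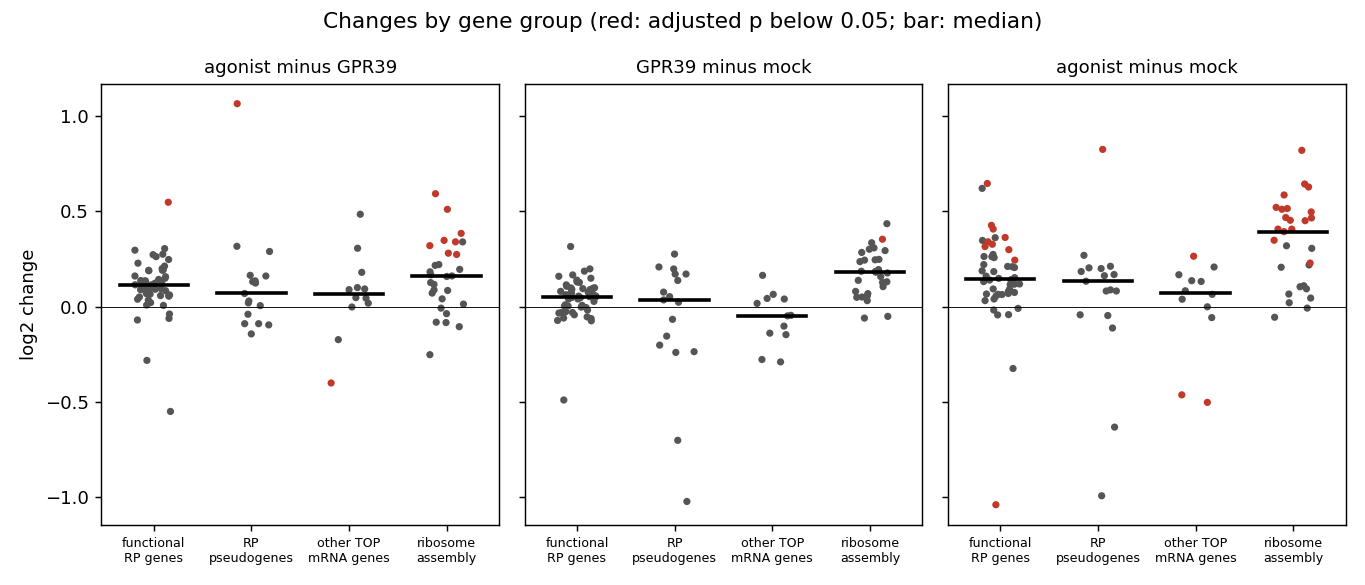
Fitted log2 changes (y axis) of functional ribosomal protein genes, their pseudogenes, other TOP mRNA genes and ribosome assembly factors, in each of the 3 comparisons (points are genes, red for an adjusted p below 0.05, bars are medians). The assembly factors have medians of 0.16 in agonist minus GPR39, 0.18 in GPR39 minus mock and 0.39 in agonist minus mock, and the functional ribosomal protein genes 0.11, 0.05 and 0.15.

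Other mRNAs known to carry a TOP tract, mainly translation factors, did not move one way. Of 22 listed 12 were tested, and the medians were 0.07 in agonist minus GPR39, -0.05 in GPR39 minus mock and 0.07 in agonist minus mock. In agonist minus mock EEF2, the elongation factor that moves the ribosome along, rose by 0.27 ± 0.07 (limma, adjusted p = 0.0342), while the filament protein gene VIM fell by 0.46 ± 0.07 (limma, adjusted p = 0.00368) and the cyclin gene CCNG1 fell by 0.50 ± 0.06 (limma, adjusted p = 0.00107). CCNG1 also fell by 0.40 ± 0.06 in agonist minus GPR39 (limma, adjusted p = 0.00581). Of 15 genes that control TOP mRNAs, 9 were tested. Their medians were -0.08 in agonist minus GPR39, 0.02 in GPR39 minus mock and -0.03 in agonist minus mock. In agonist minus GPR39 2 rose and 0 fell (22.2%), and over mock 3 rose and 1 fell (44.4%). The shares of the named genes called were 13.3% and 21.8%. The mTOR inhibitors SESN2 and DDIT4 rose in agonist minus GPR39, by 0.75 ± 0.11 and 0.89 ± 0.12 (limma, adjusted p = 0.00621 and 0.00492), and in agonist minus mock, by 0.95 ± 0.11 and 0.55 ± 0.12 (limma, adjusted p = 0.00108 and 0.0215). Over mock, EIF4EBP1, a translation repressor that mTOR inactivates, rose by 0.47 ± 0.13 (limma, adjusted p = 0.0409) and MTOR fell by 0.36 ± 0.08 (limma, adjusted p = 0.0227). The calls of EEF2 and EIF4EBP1 were lost without any single array other than mock replicate 1. Over all alternatives their adjusted p reached 0.15 and 0.182 by limma. The calls of MTOR and, over mock, DDIT4 were lost without mock replicate 2 or 3 or agonist replicate 2 or 3. Over all alternatives their adjusted p reached 0.117 and 0.14 by limma.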

How the data were processed

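Total RNA was labelled with biotin and measured on 9 Affymetrix arrays, per the labels' protocols. The authors deposited 1 log2 value per probe set and array, and MAS5 is named per the submitters' processing notes; how arrays were normalized and where logs were taken is not given in the sources used. The deposited log2 values were used as they stand, with array medians of 3.13 to 3.22 and correlations between arrays of a group of 0.977 to 0.988. Their number, 3 arrays per group, limits the precision.

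Testing covered the 33376 probe sets whose signal on 3 or more of the 9 arrays exceeded the array's 40th percentile (2.63 to 2.70), with group means fitted on all 9 arrays in limma 3.58.1 (R 4.3.3), 6 residual and 2.12 prior degrees of freedom, two-sided, Benjamini-Hochberg over all probe sets tested, threshold 0.05. The file repeats 1318 rows, which were kept. All 16098 named probe sets matched RefSeq by Entrez identifier. On simulated data with 200 of 33376 probe sets changed, the fit was tested at 1.5-fold, 2-fold and 4-fold changes. It recovered 38.7%, 71.9% and 92.4% of these in agonist minus GPR39. The shares were 37.0%, 68.7% and 92.3% in GPR39 minus mock and 38.7%, 70.9% and 91.1% in agonist minus mock. Far more probe sets were called in the data, 3025 in agonist minus GPR39 and 5022 in agonist minus mock, so recovery there may differ.

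Genes named were drawn mainly from those past the threshold and, per comparison, the 4 functional genes with the largest rise and fall. Others were the 5 functional genes with the highest and lowest means and the 5 pseudogenes with the highest means. Paralogs, 5S-complex genes and called members of the other lists were added. Not every gene of these sets is described. RPL14, RPS14 and RPS27 and the called assembly genes NOLC1, NOP2, RRP1 and WDR43 are among those whose values are not given. Members and lists were chosen with earlier results of these data known. Alternatives were 2 other filters, 2 centrings, quantile normalization, a trended robust fit, 2 groups alone, the replicate number as a block, repeated rows left out, other probe sets, each array left out, and, chosen after seeing the data, 2 arrays left out together.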

Additional observations from a re-analysis of the deposited data

How the results depend on the processing

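No result changed sign past its threshold under any alternative. In agonist minus mock, the count of functional genes called was 10 with all arrays, where 15.0% of all probe sets were called. It was 14 with the 60th percentile filter (25.2% of all probe sets) and 14 with 75th percentile centring (14.8%). The trended robust fit gave 13 (16.5%), no filter 8 (7.82%) and centring on the median 5 (15.2%). With only the 2 groups compared it was 2 (9.39%). Leaving out 1 array at a time gave 4 to 9, lowest without agonist replicate 1 (11.6%) and without agonist replicate 3 (12.2%). Without mock replicate 3 and agonist replicate 3, a setting chosen after seeing the data, it was 3 (10.1%). That pair left out also gave a functional median of 0.078 in agonist minus mock, 106 probe sets called in GPR39 minus mock and 3314 in the agonist comparison with mock. In agonist minus GPR39 the functional count was 1 with all arrays, where 9.06% of all probe sets were called. The count was 3 with the 60th percentile filter (RPL29, RPL3L and RPS6, beside 16.6%). It was 4 with the trended robust fit (10.9%) and 0 to 1 leaving out 1 array. It was 0 in GPR39 minus mock under every alternative run. Median centring gave a functional median of 0.06 in agonist minus GPR39, against 0.11.

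Arrays that share a replicate number were no more alike than others. Deviations from the group means correlated between -0.101 and 0.065 over the 9 pairs of arrays that share a number and between -0.129 and 0.119 over the 18 that do not. These values cannot tell whether arrays with the same number were prepared together. With the number as a replicate block, 0 functional genes were called in agonist minus GPR39, beside 5.45% of all probe sets. In agonist minus mock 5 were called, beside 11.8%. All probe sets called then numbered 1819 in agonist minus GPR39 and 150 in GPR39 minus mock.

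The pseudogene medians moved with the setting. In agonist minus GPR39 the median was 0.13 with the 60th percentile filter, 0.021 with median centring and 0.12 with the second probe set. In GPR39 minus mock it was 0.14 with that filter, 0.0923 with centring on the 75th percentile and -0.0662 with the second probe set. In agonist minus mock it was 0.0883 with no filter and 0.20 with 75th percentile centring. There 2 pseudogenes, RPL13P5 and RPL21P28, were called with the 60th percentile filter, 75th percentile centring or the trended robust fit. Of all probe sets, 25.2%, 14.8% and 16.5% were called in these settings. Centring on the 75th percentile gave functional medians of 0.11 in GPR39 minus mock and 0.22 in agonist minus mock, and itself shifted the median of all probe sets to 0.06 and 0.09.

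All probe sets called in GPR39 minus mock numbered 637 with the 60th percentile filter, 663 with the trended robust fit and 190 with the 2 groups alone, and in agonist minus mock 3133 with the 2 groups alone. Leaving out 1 array gave 1518 to 3157 probe sets in agonist minus GPR39, 108 to 1324 in GPR39 minus mock and 3510 to 4969 in agonist minus mock. It gave functional medians of 0.08 to 0.14, 0.01 to 0.08 and 0.10 to 0.17 in these comparisons, pseudogene medians of 0.0358 to 0.105, 0.0142 to 0.0914 and 0.0685 to 0.152, and 1, 0 to 1 and 1 to 2 pseudogenes called. The cause of these shifts was not tested, other than that leaving out arrays or groups lowers the number of arrays fitted.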
